A study of Bos taurus with 12 samples.

Results

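The 43 genes described here encode the proteins that copy chromosomal DNA in S phase. They were chosen by symbol from the gene column of the raw count table and grouped by the complex to which each protein belongs. All 43 symbols were found among the 29240 named genes of the table, and all 43 passed the filter on low counts, which kept 16300 genes for testing. The table gives coordinates without naming a genome build. Each of the 43 symbols was matched in a RefSeq gene table of the ARS-UCD2.0 cattle assembly.

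The cells were precursor adipocytes of cattle (Bos taurus), all of them transfected and collected 48 h later, with 3 RNA sequencing libraries in each of 4 groups. OE cells received the plasmid pcDNA3.1 carrying the coding sequence of HGFAC, the gene of the HGF activator, a secreted protease best known for activating hepatocyte growth factor. OE_NC cells received the matching control plasmid, pcDNA3.1-NC. In the interference assay, si cells stood against si_NC cells, which were transfected with what the labels call an NC plasmid. The labels name no target for si. Because pcDNA3.1 drives its insert from a viral promoter, OE cells are a model of forced expression and not of regulation at the HGFAC locus. Nothing in the labels says that replicates came from separate cultures or animals, so p-values here speak only of library-to-library spread, which may be technical.

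Replication is prepared in G1, when the origin recognition complex with CDC6 and CDT1 loads the MCM2-7 helicase ring onto DNA. At the start of S phase CDC45 and GINS join the ring, MCM10 helps to activate it, polymerase alpha lays down primers, and polymerases epsilon and delta extend the leading and lagging strands. RPA covers the exposed single strands, RFC loads the sliding clamp PCNA, FEN1 and LIG1 finish the lagging-strand fragments, and E2F transcription factors switch on many of these genes as cells enter S phase. Precursor adipocytes still divide, and leave the cell cycle when they mature into fat cells.

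HGFAC itself reached 189.6, 156 and 138 normalised CPM (reads relative to the TMM-scaled library size) in the OE libraries, against 0.273, 0.379 and 0.526 in the OE_NC libraries. In the si libraries it stood at 0.843, 0.525 and 0.605 CPM, against 0.818, 0.738 and 0.935 CPM in the si_NC libraries, so the interference libraries could not be checked through this gene. Named genes held 28944733 to 42703663 counts per library, of which the 43 replication genes took 0.191 to 0.257 percent. Of the stromal markers, COL1A2 averaged 7200.3 normalised CPM and PDGFRA 275, whereas CD34 and DLK1 stayed under 10 reads in every library. Of the fat-cell markers, ADIPOQ and LEP had mean levels of 0.0198 and 0.0361 RPKM (reads relative to exon length and library size), and FABP4 had 11.3 RPKM. In CPM of the library totals, the 10 stromal markers summed to 18463 to 19697 in OE, 14730 to 19794 in OE_NC, 19134 to 23919 in si and 13110 to 18520 in si_NC. The 5 fat-cell markers summed to 10.6 to 11.6 CPM in OE, 8.41 to 10.1 CPM in OE_NC, 6.39 to 9.99 CPM in si and 5.34 to 16.1 CPM in si_NC. Over all 12 libraries the 4 endothelial markers summed to 2.23 to 3.09 CPM, the 4 immune markers to 5.68 to 7.61 CPM and the 4 epithelial markers to 0.276 to 1.17 CPM. The 5 muscle markers summed to 708 to 728 CPM in OE, 526 to 605 CPM in OE_NC, 490.0 to 640 CPM in si and 460 to 563 CPM in si_NC, nearly all of it DES, the intermediate filament desmin, while MYF5, MYOD1 and MYOG stayed under 10 reads in every library. DES was higher in OE than in OE_NC (log2 change 0.42 ± 0.10, adjusted p = 0.0399, edgeR). The part of these marker levels in the results was not tested.

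**Figure D1:**
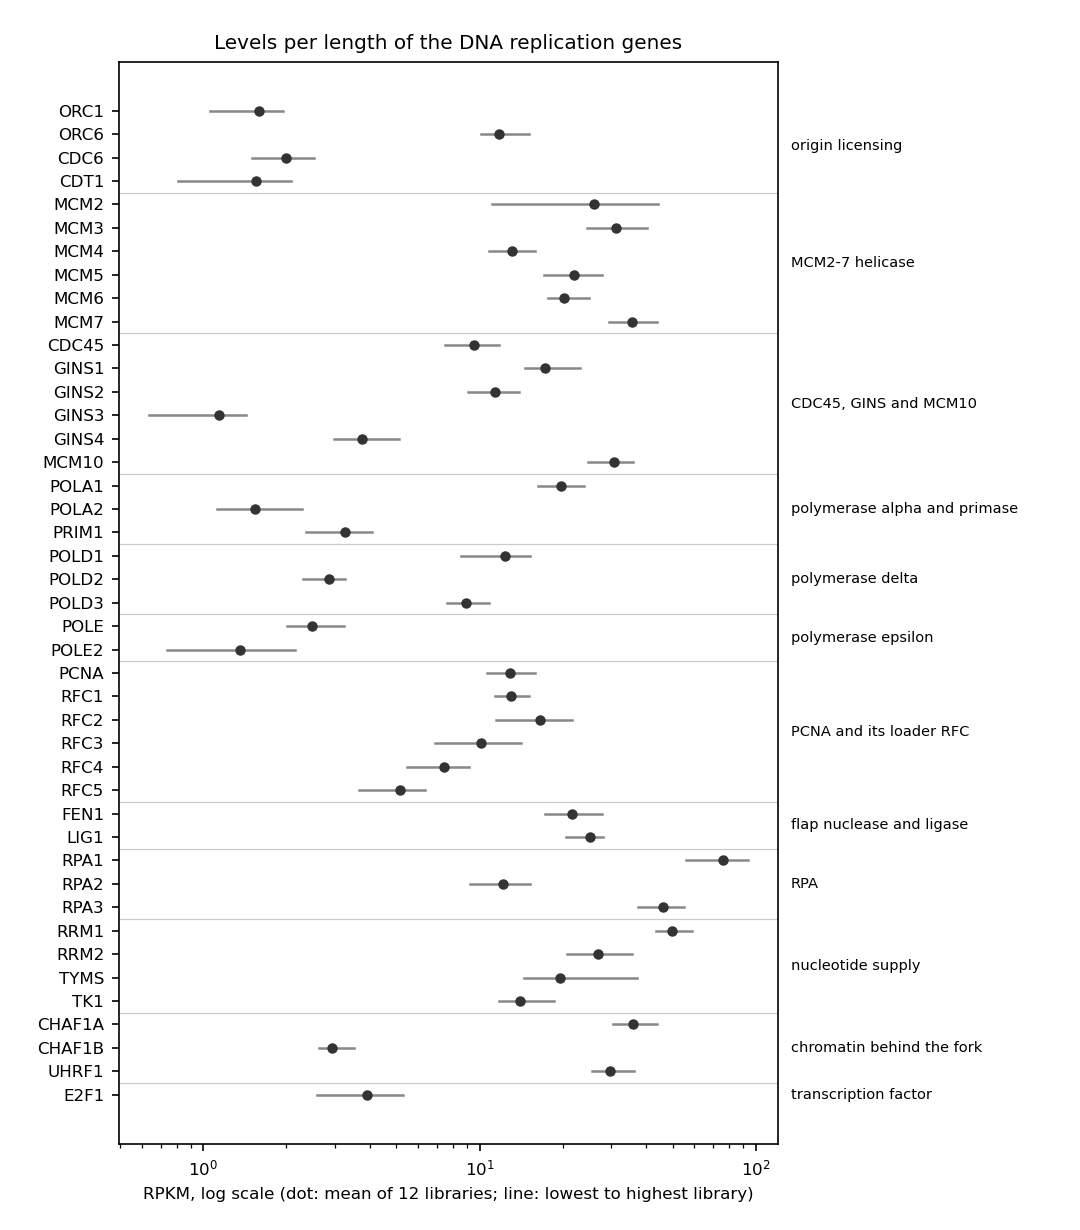
RPKM of each of the 43 replication genes on a log scale, grouped by complex, with a dot for the mean of 12 libraries and a line for the lowest to the highest library. RPA1 stands highest at 75.8 RPKM and GINS3 lowest at 1.14 RPKM, and members of a single complex, such as the 4 GINS genes, lie far apart.

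Per length, the replication genes spanned a wide range of levels, shown in the plot of RPKM by complex. RPA1, the large subunit of the single-strand binding protein, was the highest at a mean of 75.8 RPKM over the 12 libraries, higher than 94.3 percent of the genes tested. RRM1, the large subunit of ribonucleotide reductase, which makes deoxynucleotides, followed with 49.9 RPKM, and RPA3, the small subunit of RPA, with 46.3 RPKM. The lowest were GINS3 at 1.14 RPKM, POLE2, a noncatalytic subunit of polymerase epsilon, at 1.36 RPKM, and POLA2, the regulatory subunit of polymerase alpha, at 1.54 RPKM.

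By RPKM, subunits of one complex did not stand at one level. RPKM divides by the exon length in the count table, for example 8343 bases for POLE, and which transcripts the cells used was not examined. The MCM2-7 ring, whose subunits are present once each, ranged from 13.1 RPKM for MCM4 to 35.6 RPKM for MCM7, a ratio of 2.73. The GINS complex ranged more widely, with 17.3 RPKM for GINS1, 11.3 for GINS2, 3.75 for GINS4 and 1.14 for GINS3. POLA1, the catalytic subunit of polymerase alpha, had 19.8 RPKM, against 3.25 for PRIM1, the catalytic subunit of the primase bound to it. POLE, the catalytic subunit of polymerase epsilon, had 2.47 RPKM and POLD1, that of polymerase delta, 12.3 RPKM. Of the licensing factors, ORC6 had 11.8 RPKM, CDC6 1.99, ORC1 1.60 and CDT1 1.56. The lowest read counts per library were 49 to 143 for POLE2, 52 to 118 for GINS3 and 56 to 159 for CDT1, so the values of these genes carry the largest counting error.

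**Figure D2:**
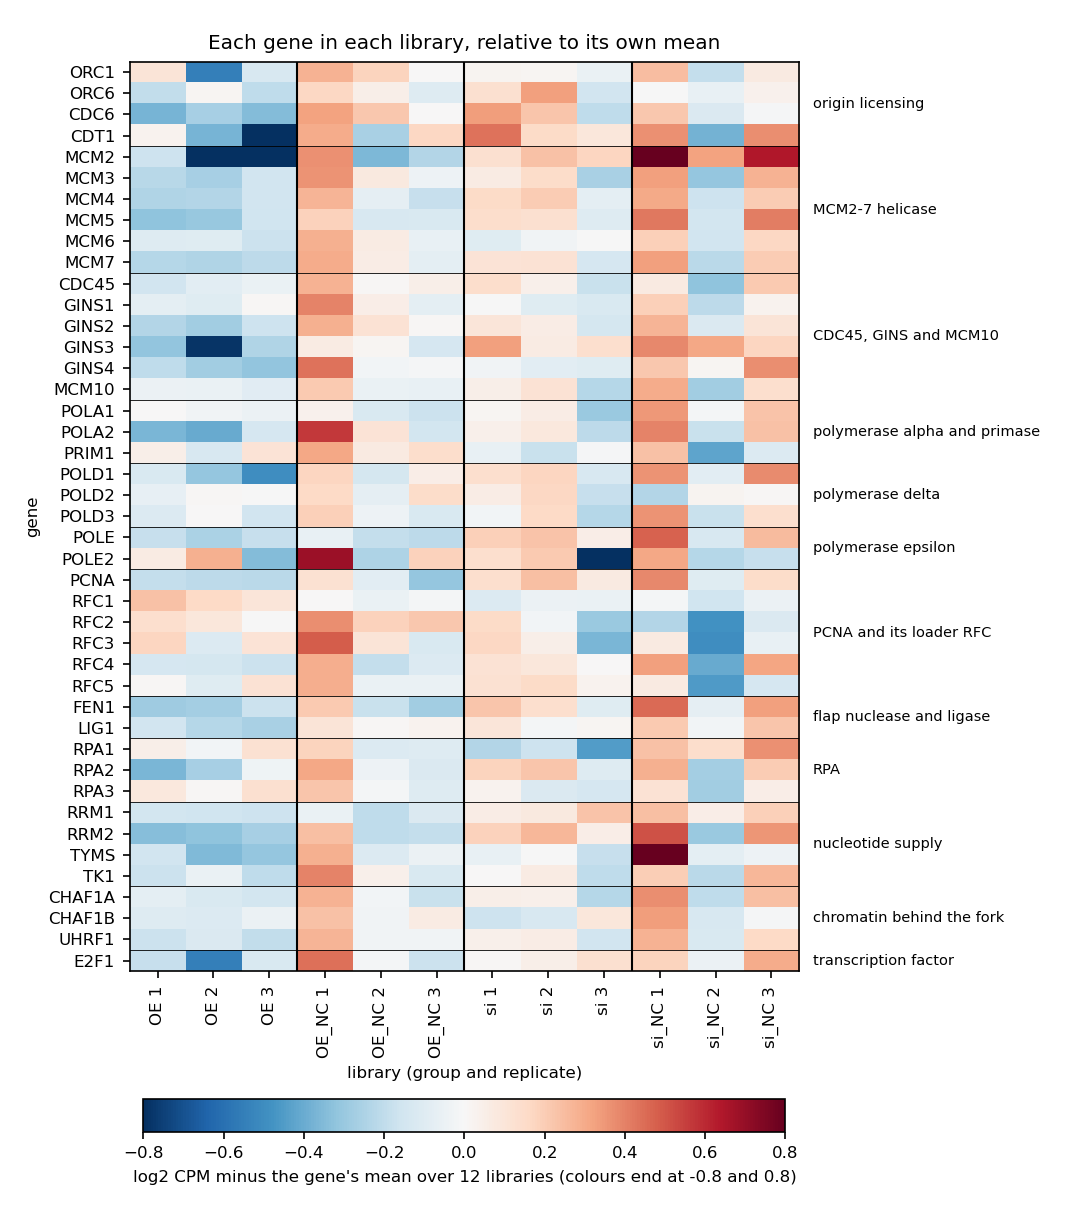
Colour gives the log2 CPM of each of the 43 genes (down the page, by complex) in each of the 12 libraries (across, by group) minus the gene's own mean. OE_NC replicate 1 and si_NC replicate 1 are red for most genes, with 41 and 39 of 43 above their own mean, and the 3 OE libraries and si_NC replicate 2 are mostly blue. The share of all genes above their own mean in these libraries was not counted.

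The replication genes moved together from library to library, and single control libraries stood apart. Relative to each gene's mean over the 12 libraries, the median deviation of the 43 genes was -0.15, -0.16 and -0.16 (log2) in the OE libraries, against 0.28, -0.03 and -0.08 in the OE_NC libraries. In the si libraries it was 0.10, 0.08 and -0.12, against 0.28, -0.16 and 0.19 in the si_NC libraries. Thus si_NC replicate 2 lay below the other si_NC libraries, si replicate 3 below the other si libraries, and OE_NC replicate 1 above the other OE_NC libraries. Of the 43 genes, 18 had their highest level of all in si_NC replicate 1 and 17 in OE_NC replicate 1, while 12 had their lowest level in si_NC replicate 2 and 22 in one of the OE libraries. The same counts were not made over all genes, so they do not set the replication genes apart from other genes.

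**Figure D3:**
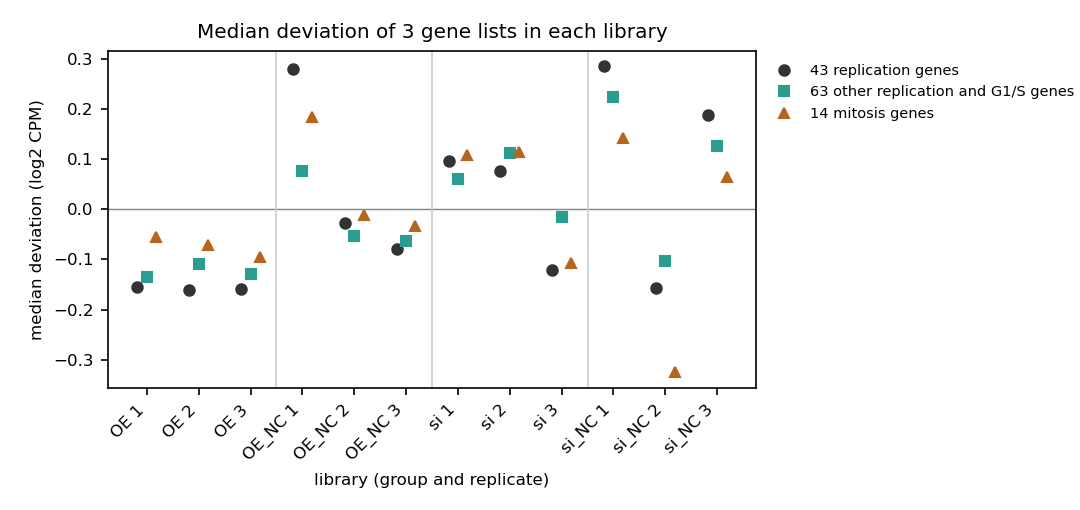
Median deviation (log2 CPM) in each library of the 43 replication genes, of 63 other replication and G1/S genes and of 14 mitosis genes, each gene measured from its own mean. In each list OE_NC replicate 1 and si_NC replicate 1 are the highest of their own group and si_NC replicate 2 is the lowest of its group. OE_NC replicate 1 is at 0.08 in the list of 63 genes and at 0.28 in that of 43. All 3 OE libraries lie below 0 in each list.

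A list of 14 mitosis genes, shown with the replication genes in the plot of median deviations by library, followed a like order in part. In si against si_NC its median log2 change was 0.09, where that of the 43 replication genes was -0.08. By library, the median deviations of the mitosis genes were -0.06, -0.07 and -0.10 in OE, against 0.18, -0.01 and -0.03 in OE_NC. They were 0.11, 0.11 and -0.11 in si, against 0.14, -0.32 and 0.06 in si_NC. MKI67, the proliferation antigen Ki-67, averaged 1338 ± 18.3 CPM in OE, against 1307 ± 74.2 CPM in OE_NC, and 1378 ± 86.5 CPM in si, against 1299 ± 228 CPM in si_NC (SD, n = 3 each). In bulk libraries, fewer cells in S phase and less RNA of these genes per cell cannot be told apart.

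With the HGFAC plasmid, most replication genes had small differences below 0, but no single gene passed the adjusted test. Because these genes moved together from library to library, counts of genes by direction or overlap are not independent observations, here and in the other comparisons. The genes were not tested as a set. In OE against OE_NC, 39 of 43 genes had a log2 change below 0, against 50.7 percent of all genes tested, and their median was -0.23 against -0.0046 for all genes. By edgeR's quasi-likelihood test with Benjamini-Hochberg adjustment over 16300 genes, 0 of 43 were called, beside 4.47 percent of all genes (2.22 percent higher and 2.25 percent lower). DESeq2's Wald test called 4 of the 43 and limma on log2 RPKM called 2. With DESeq2 size factors or a gene-length trend removed, edgeR again called 0. Calls over all genes, 728 in the main fit, ran from 523 to 2325 over the alternatives other than leaving out 1 library. At an unadjusted p under 0.05, 13 genes were lower, beside 11.8 percent of all genes, and 1 was higher, beside 11.1 percent. All 3 OE libraries lay below all 3 OE_NC libraries for 15 of the 43 genes, where 16 percent of all genes did so, and above them for 1 gene, where 17.4 percent did.

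The size of this difference moved with single libraries. Without OE_NC replicate 1, the median of the 43 genes was -0.12 and 4 genes were lower at an unadjusted p under 0.05. Without OE_NC replicate 3, the median was -0.29 and 18 genes were lower, and without OE replicate 2, 7 were lower. By adjusted p, 4 genes were called without si_NC replicate 2, 3 without si replicate 3, and 1 without OE replicate 1 or OE_NC replicate 3. Calls over all genes moved as well. They were 728 with all libraries, and ran from 19 without OE replicate 2 to 1414 without si replicate 3. The median kept its sign without each of the 12 libraries. With si replicate 3 and si_NC replicate 2 left out together (a choice made after the data were seen), the same contrast called 10 of the 43 genes, all lower, and 2325 of all 16712 genes tested. The 14 mitosis genes had a median of -0.12 in the same comparison, and their part in the result was not tested.

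**Figure D4:**
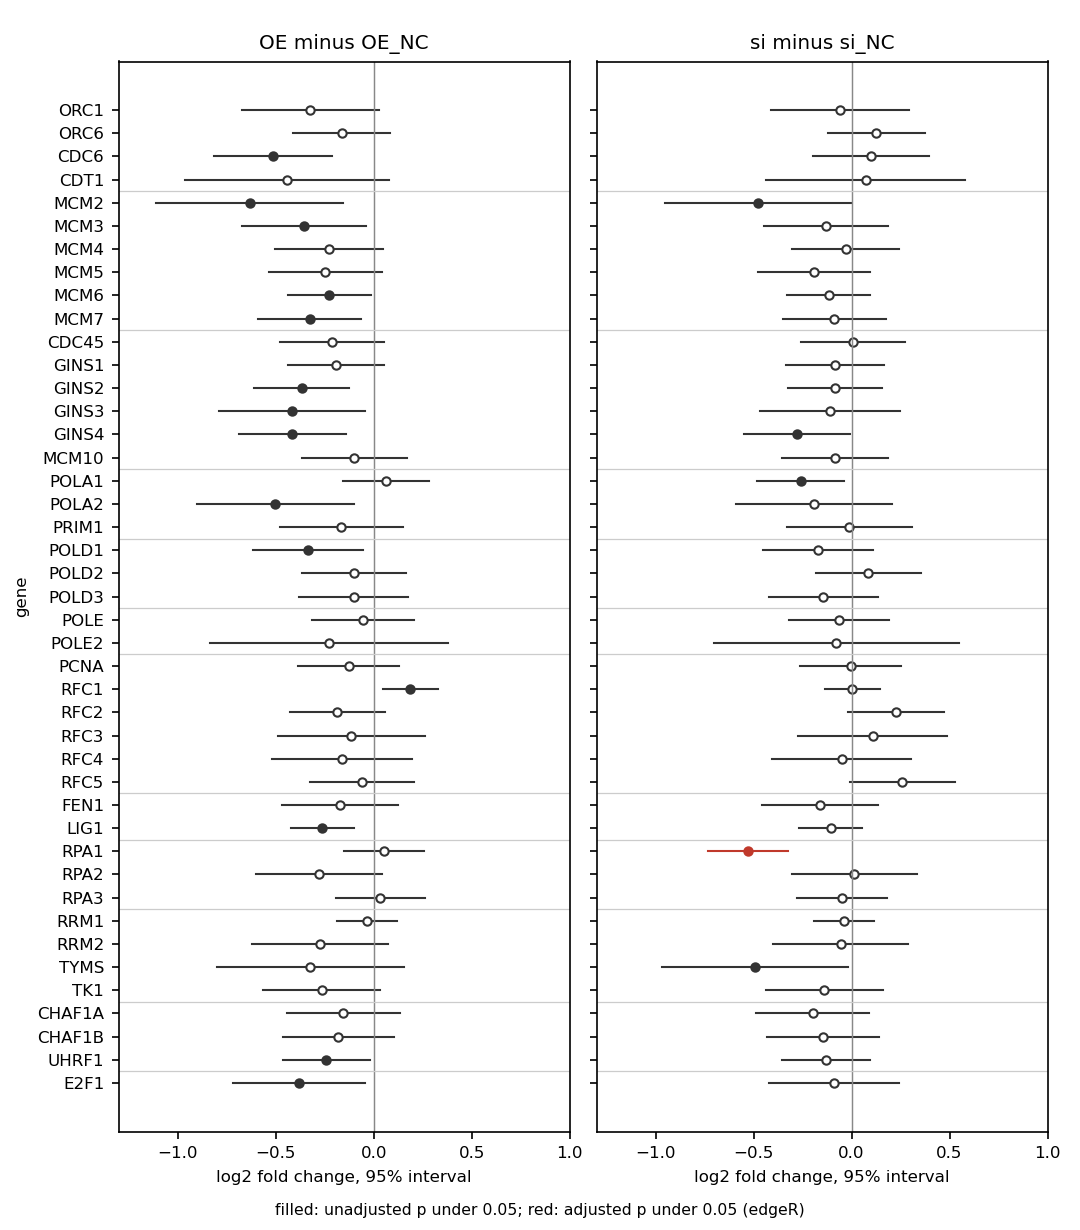
Log2 fold changes of the 43 genes with 95% intervals, OE minus OE_NC on the left and si minus si_NC on the right. Filled dots mark an unadjusted p under 0.05 and red marks an adjusted p under 0.05 (edgeR). On the left 39 dots lie below 0 and none is red, and on the right RPA1 alone is red.

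Among the licensing factors, the clearest was CDC6, the ATPase that works with the origin recognition complex to load the MCM ring (19:40534729-40548024, + strand, coordinates as in the count table). It stood at 7.32, 7.86 and 7.45 CPM in the OE libraries, against 11.8, 10.97 and 9.49 CPM in the OE_NC libraries. The 3 OE values were close together and the groups did not overlap. The log2 change was -0.51 ± 0.14 (SE) with an adjusted p of 0.0514 by edgeR, just outside the threshold of 0.05. Its adjusted p ran from 0.0059 to 0.176 over 24 alternative settings, 11 of which called it lower. The other licensing genes were lower without passing: ORC1 had a log2 change of -0.32, CDT1 of -0.44, and ORC6, at 18.7, 21.6 and 18.6 CPM in OE against 24.003, 22.1 and 19.9 CPM in OE_NC, of -0.16 ± 0.12 (adjusted p = 0.423, edgeR).

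All 6 genes of the MCM2-7 helicase had a log2 change below 0 in OE. MCM7 stood at 84.1, 83.4 and 85.3 CPM in OE, against 121, 103 and 93.4 CPM in OE_NC. The groups did not overlap, and the OE_NC values spread much more widely than the OE values. Its log2 change was -0.33 ± 0.12 (adjusted p = 0.130, edgeR). MCM2 had the largest estimate of the 43 genes, with 85.7, 44.8 and 50.4 CPM in OE, against 124, 74.8 and 81.6 CPM in OE_NC. OE replicate 1 lay inside the OE_NC range, so the groups overlapped, and the log2 change was -0.63 ± 0.22 (adjusted p = 0.109, edgeR). The remaining ring genes had log2 changes of -0.36 (MCM3), -0.23 (MCM4), -0.25 (MCM5) and -0.23 (MCM6), with groups that did not overlap except for MCM4. Summed over the ring, the deposited RPKM gave 118 ± 6.04 in OE and 156 ± 23.3 in OE_NC (SD, n = 3 each).

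Of the 6 genes for factors that turn the ring into an active helicase none passed the adjusted test, and their log2 changes ran from -0.42 (GINS4) to -0.10 (MCM10). GINS2 stood at 11.3, 10.99 and 11.9 CPM in OE, against 16.3, 14.5 and 13.4 CPM in OE_NC, a log2 change of -0.37 ± 0.11 (adjusted p = 0.0722, edgeR). Over 24 alternative settings that change ran from -0.45 to -0.16, and 9 of them called GINS2 lower. GINS4 stood at 9.56, 9.09 and 8.87 CPM in OE, against 14.9, 10.9 and 10.9 CPM in OE_NC, a log2 change of -0.42 ± 0.13 (adjusted p = 0.0722, edgeR). Neither pair of groups overlapped, and in both genes OE_NC replicate 1 was the highest. GINS3 (log2 change -0.41) and CDC45 (-0.21) also had groups that did not overlap, and GINS1 (-0.19) had overlapping groups. MCM10, a scaffold that helps to fire the assembled helicase, stood at 138, 138 and 134 CPM in OE, against 165, 137 and 136 CPM in OE_NC, where only OE_NC replicate 1 was clearly higher, and its log2 change was -0.10 ± 0.13 (adjusted p = 0.685, edgeR).

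None of the polymerase genes passed. POLA1 stood at 117, 115 and 113 CPM in OE, against 119.7, 108 and 104 CPM in OE_NC, with a log2 change of 0.06 ± 0.10 (adjusted p = 0.770, edgeR), while its partners POLA2 and PRIM1 had log2 changes of -0.50 and -0.17. POLD1, at 39.4, 34.6 and 30.5 CPM in OE against 48.3, 39.0 and 44.6 CPM in OE_NC, had a log2 change of -0.33 ± 0.13 (adjusted p = 0.145, edgeR). POLD2 and POLD3, its accessory subunits, were both at -0.10. POLE stood at 17.99, 17.1 and 17.99 CPM in OE, against 19.6, 17.9 and 17.7 CPM in OE_NC, and its log2 change was -0.06 ± 0.12 (adjusted p = 0.823, edgeR). POLE2 was at -0.23, with a standard error of 0.28.

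None of the 6 genes of the clamp and its loader passed the adjusted test in OE against OE_NC. RFC1, the large subunit of the loader, was the 1 gene of the 43 that lay higher in every OE library, with 143, 136 and 130.3 CPM in OE, against 122, 118 and 120.5 CPM in OE_NC. Its log2 change was 0.19 ± 0.07 (adjusted p = 0.109, edgeR), and ran from 0.09 to 0.22 over 24 alternative settings, 0 of which called it. RFC2, a small subunit, stood at 36.6, 35.5 and 33.2 CPM in OE, against 43.2, 37.9 and 38.8 CPM in OE_NC, with groups that did not overlap and a log2 change of -0.19 ± 0.11 (adjusted p = 0.348, edgeR). In RPKM, the ratio of RFC1 to the mean of RFC2 to RFC5 was 1.48, 1.51 and 1.41 in OE, against 1.03, 1.23 and 1.28 in OE_NC. The other loader subunits had log2 changes of -0.11 (RFC3), -0.16 (RFC4) and -0.06 (RFC5), and the clamp PCNA of -0.13 (22.1 ± 0.180 CPM in OE and 24.1 ± 3.59 CPM in OE_NC).

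LIG1, the ligase that seals lagging-strand fragments, stood at 83.7, 79.4 and 77.7 CPM in OE, against 99.97, 93.7 and 95.1 CPM in OE_NC, with no overlap. The log2 change was -0.26 ± 0.08 (adjusted p = 0.0601, edgeR), and 11 of 24 alternative settings called it lower. FEN1, the nuclease that trims the flaps before ligation, had a log2 change of -0.17. None of the 3 RPA genes passed: RPA1 stood at 222, 212 and 234 CPM in OE, against 243, 199.9 and 200.4 CPM in OE_NC, with a log2 change of 0.05 ± 0.10 (adjusted p = 0.779, edgeR), while RPA2 was at -0.28 and RPA3 at 0.03.

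For nucleotide supply, RRM1 stood at 135, 133 and 133 CPM in OE, against 144, 129.8 and 138 CPM in OE_NC, a log2 change of -0.03 ± 0.07 (adjusted p = 0.814, edgeR). RRM2, the small subunit whose level follows S phase, had a log2 change of -0.27, thymidylate synthase TYMS of -0.32 and thymidine kinase TK1 of -0.26, and the groups did not overlap for RRM2 and TYMS. CHAF1A, the large subunit of the histone chaperone CAF-1, stood at 132, 128 and 126 CPM in OE, against 169, 137 and 124 CPM in OE_NC, with a log2 change of -0.15 ± 0.14 (adjusted p = 0.528, edgeR). Its partner CHAF1B was at -0.18 and UHRF1, which brings maintenance methylation to new DNA, at -0.24, both with groups that did not overlap. E2F1, the transcription factor of the list, stood at 7.48, 5.81 and 7.79 CPM in OE, against 11.5, 8.39 and 7.53 CPM in OE_NC, with a log2 change of -0.38 ± 0.16 (adjusted p = 0.165, edgeR).

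In the interference assay 1 replication gene, RPA1, was called lower in si than in si_NC, and the other 42 did not pass the adjusted test. In si against si_NC, edgeR's test with Benjamini-Hochberg adjustment called 1 of 43 genes lower, beside 1.62 percent of all genes lower, 0.92 percent higher and 2.54 percent in either direction, so the count was close to the share over all genes. At an unadjusted p under 0.05, 5 of 43 were lower, beside 9.88 percent of all genes, and 0 were higher, beside 9.03 percent. The groups did not overlap for 3 lower genes (RPA1, GINS4 and MCM2), beside 10.6 percent of all genes, and for 0 higher genes, beside 10.2 percent. The log2 change was below 0 for 33 of 43 genes, beside 46 percent of all genes, with a median of -0.08 against 0.02 for all genes. That direction rested on si_NC replicate 1, without which 18 of 43 were below 0 and the median was 0.01. Scaling by library totals, which moved the median of all genes to 0.10, left 23 below 0. The count of 5 was 18 without si_NC replicate 2, 3 without OE replicate 3, 2 on leaving out either of the first 2 si libraries or si_NC replicate 3, and 1 without si replicate 3 or si_NC replicate 1. By adjusted p, calls over all genes also ran from 56 without si_NC replicate 1 to 1083 without si_NC replicate 2.

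**Figure D5:**
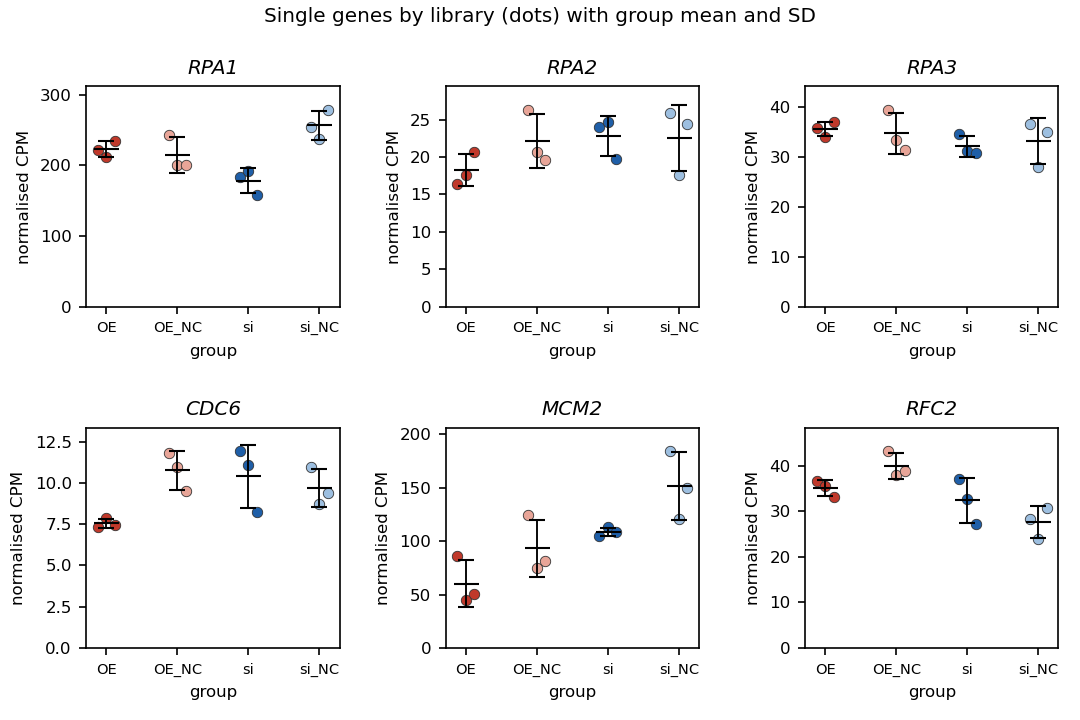
Normalised CPM of RPA1, RPA2, RPA3, CDC6, MCM2 and RFC2 in each library (dots) with the group mean and SD (bars), n = 3 per group. RPA1 is lower in every si library than in every si_NC library while RPA2 and RPA3 overlap, CDC6 is lowest in OE, and MCM2 and RFC2 differ between the OE_NC and si_NC controls.

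RPA1 (19:22900174-22946581, + strand) stood at 183, 192 and 158 CPM in the si libraries, against 254, 237 and 278 CPM in the si_NC libraries. All 3 si values lay below all 3 si_NC values, with a gap of more than the spread within si, as the plot of single genes by library shows. Group means were 178 CPM in si, 256 in si_NC, 215 in OE_NC and 223 in OE. Thus si was the lowest and si_NC the highest of the 4 groups, and which of them accounts for the difference was not tested. The log2 change was -0.53 ± 0.10 (95% interval -0.73 to -0.32) with an adjusted p of 0.0132 by edgeR. Over 24 alternative settings it ran from -0.59 to -0.44. The call was lost without si replicate 1 (adjusted p = 0.0516, edgeR), without si_NC replicate 1 (0.0575), without si_NC replicate 3 (0.0565) and in a fit of the si and si_NC libraries alone (0.0847).

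The other RPA subunits had estimates near 0. RPA2, the middle subunit, which is phosphorylated when forks stall, stood at 24.01, 24.7 and 19.7 CPM in si, against 25.8, 17.6 and 24.4 CPM in si_NC, a log2 change of 0.01 ± 0.15. RPA3 stood at 34.4, 31.0 and 30.7 CPM in si, against 36.5, 27.8 and 35.0 CPM in si_NC, a log2 change of -0.05 ± 0.11. In RPKM, the ratio of RPA1 to RPA2 was 4.69, 4.78 and 4.91 in si, against 6.03, 8.29 and 7.001 in si_NC, and the ratio of RPA1 to RPA3 was 1.36, 1.58 and 1.31 in si, against 1.77, 2.17 and 2.02 in si_NC. Neither ratio overlapped between the groups. In the overexpression assay the ratio of RPA1 to RPA2 was 8.29, 7.37 and 6.96 in OE, against 5.68, 5.95 and 6.29 in OE_NC, and the ratio of RPA1 to RPA3 overlapped, with 1.58, 1.59 and 1.62 in OE, against 1.58, 1.53 and 1.63 in OE_NC. These ratios are descriptions and were not tested.

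MCM2 and GINS4 also had groups that did not overlap. MCM2 stood at 105, 113 and 108 CPM in si, against 184, 120.3 and 149.5 CPM in si_NC. The si values were tight and the si_NC values wide, and the log2 change of -0.48 ± 0.22 did not pass (adjusted p = 0.259, edgeR). The ratio of MCM2 to the mean of MCM3 to MCM7, in RPKM, was 1.04, 1.09 and 1.24 in si, against 1.54, 1.45 and 1.31 in si_NC, with no overlap. GINS4 stood at 10.8, 10.4 and 10.3 CPM in si, against 12.8, 11.1 and 14.3 CPM in si_NC, with a log2 change of -0.28 ± 0.13 (adjusted p = 0.255, edgeR). The other ring genes had log2 changes between -0.19 (MCM5) and -0.03 (MCM4), and MCM7, at 107, 107 and 89.8 CPM in si against 124, 85.1 and 113 CPM in si_NC, was at -0.09 ± 0.12 (adjusted p = 0.748, edgeR).

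POLA1 stood at 118, 122 and 95.3 CPM in si, against 149, 116 and 137 CPM in si_NC. The groups overlapped because si replicates 1 and 2 lay above si_NC replicate 2, and the log2 change was -0.26 ± 0.10 (adjusted p = 0.186, edgeR). TYMS stood at 29.4, 30.6 and 26.9 CPM in si, against 63.5, 29.0 and 29.8 CPM in si_NC. Its log2 change of -0.49 ± 0.22 (adjusted p = 0.247, edgeR) came from si_NC replicate 1 alone, and was -0.02 without that library. TYMS shares 196 of its 1617 exon bases with ENOSF1 on the other strand, and how the counting treated strand is not given in the sources used here, so reads there cannot be assigned for certain. The same holds for 732 of 3000 exon bases of CDC45, shared with UFD1, and 1105 of 4313 of RFC5, shared with WSB2.

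RFC5, a small subunit of the clamp loader, had the highest estimate in this comparison, with 24.1, 24.6 and 22.5 CPM in si, against 23.2, 16.1 and 20.1 CPM in si_NC, a log2 change of 0.26 ± 0.13 (adjusted p = 0.280, edgeR). RFC2 stood at 37.2, 32.8 and 27.2 CPM in si, against 28.3, 23.9 and 30.8 CPM in si_NC, with overlapping groups and a log2 change of 0.23 ± 0.12 (adjusted p = 0.304, edgeR). The clamp PCNA averaged 28.3 ± 1.68 CPM in si and 28.4 ± 4.70 CPM in si_NC (SD, n = 3 each). Among the licensing genes, ORC6 stood at 23.4, 26.9 and 19.2 CPM in si, against 21.4, 20.5 and 21.9 CPM in si_NC, a log2 change of 0.13 ± 0.12 (adjusted p = 0.602, edgeR), and CDC6 was at 0.10, CDT1 at 0.07 and ORC1 at -0.06.

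The remaining genes overlapped between si and si_NC. MCM10 stood at 147, 155 and 122 CPM in si, against 175, 117 and 157 CPM in si_NC, a log2 change of -0.08 ± 0.13 (adjusted p = 0.769, edgeR). POLD1 stood at 47.0, 48.3 and 39.3 CPM in si, against 55.1, 40.5 and 55.9 CPM in si_NC, a log2 change of -0.17 ± 0.13 (adjusted p = 0.512, edgeR). LIG1 stood at 99.6, 92.2 and 94.1 CPM in si, against 108, 91.9 and 108 CPM in si_NC, a log2 change of -0.11 ± 0.08 (adjusted p = 0.476, edgeR). In each of these 3 genes the lowest control library was si_NC replicate 2. POLE (log2 change -0.06 ± 0.12, adjusted p = 0.824) and RRM1 (-0.04 ± 0.07, adjusted p = 0.823) were close to 0 by edgeR, with 23.3, 23.9 and 21.2 CPM of POLE and 156, 157 and 175 CPM of RRM1 in si, against 28.4, 18.7 and 24.4 CPM of POLE and 176, 155 and 169.9 CPM of RRM1 in si_NC. CHAF1A, at 144, 144 and 119 CPM in si against 181, 121 and 165 CPM in si_NC, had a log2 change of -0.20 ± 0.14 (adjusted p = 0.460, edgeR). The other genes not yet named lay between a log2 change of -0.19 (POLA2) and 0.11 (RFC3), among them POLD3 at -0.14, POLD2 at 0.09, FEN1 at -0.16, TK1 at -0.14, RRM2 at -0.06, UHRF1 at -0.13 and CHAF1B at -0.15. E2F1 stood at 8.54, 8.77 and 9.27 CPM in si, against 9.62, 8.23 and 10.4 CPM in si_NC, a log2 change of -0.09 ± 0.16 (adjusted p = 0.806, edgeR).

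The change in OE was also tested against the change in si. Of the 43 genes, 1 was called by edgeR, with a higher change in OE, beside 8.41 percent of all genes (4.29 percent higher and 4.12 percent lower). That gene was RPA1, whose OE change exceeded its si change by 0.58 ± 0.13 on the log2 scale (adjusted p = 0.0178, edgeR). The log2 change of RPA1 was 0.05 in OE and -0.53 in si. The call was lost without OE_NC replicate 2 (adjusted p = 0.0623, edgeR) and without si_NC replicate 3 (0.0512). It was also lost with limma on log2(RPKM + 1) (adjusted p = 0.0603) and log2(RPKM + 0.1) (0.0608). CDC6 was next, with a difference of -0.61 ± 0.20 (adjusted p = 0.0698, edgeR) between -0.51 in OE and 0.10 in si.

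The next 4 genes by p did not pass. RFC2 had a difference of -0.41 ± 0.16 (adjusted p = 0.128, edgeR) and RFC5 of -0.32 ± 0.18 (adjusted p = 0.292, edgeR). The estimates of the other small loader subunits, RFC3 (-0.22) and RFC4 (-0.11), had the same sign. RFC2 was also higher in OE_NC than in si_NC, by a log2 change of 0.53. That gap enters the difference of RFC2, and its part was not tested. POLA1 had a difference of 0.32 ± 0.15 (adjusted p = 0.188, edgeR) and RFC1 of 0.18 ± 0.09 (adjusted p = 0.250, edgeR). The difference was below 0 for 34 of 43 genes, beside 52.6 percent of all genes, with a median of -0.15 against -0.02 for all genes. Its median was -0.03 without OE_NC replicate 1 and -0.02 without si_NC replicate 2.

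The control groups were also set against each other, and 4 replication genes differed between them. The OE_NC cells carried pcDNA3.1-NC and the si_NC cells the control of the interference assay, so the agent and the experiment cannot be told apart in this comparison, which shares its libraries with those of OE and si. In OE_NC against si_NC, 4 of 43 genes were called by edgeR, beside 19.7 percent of all genes. Of these 1 was higher, beside 9.49 percent of all genes, and 3 were lower, beside 10.2 percent. The median log2 change of the 43 genes was -0.03 against 0.02 for all genes.

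RFC2 (25:33161473-33175546, + strand) was the higher one, with 43.2, 37.9 and 38.8 CPM in OE_NC, against 28.3, 23.9 and 30.8 CPM in si_NC. The groups lay well apart, and the log2 change was 0.53 ± 0.12 (adjusted p = 0.00574, edgeR), a call that held in all 24 alternative settings. Its partners RFC3 (0.31) and RFC5 (0.23) had log2 changes of the same sign that did not pass, RFC1 was at 0.05 and RFC4 at -0.11.

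RRM1 (15:50969957-51010317, - strand) was lower, with 144, 129.8 and 138 CPM in OE_NC, against 176, 155 and 169.9 CPM in si_NC. The groups did not overlap and the log2 change was -0.28 ± 0.07 (adjusted p = 0.0136, edgeR). MCM2 (22:59896016-59919972, - strand) stood at 124, 74.8 and 81.6 CPM in OE_NC, against 184, 120.3 and 149.5 CPM in si_NC, overlapping only through OE_NC replicate 1 and si_NC replicate 2. Its log2 change was -0.69 ± 0.22 (adjusted p = 0.0395, edgeR). POLE (17:44522937-44584008, + strand) stood at 19.6, 17.9 and 17.7 CPM in OE_NC, against 28.4, 18.7 and 24.4 CPM in si_NC, also overlapping through those libraries, with a log2 change of -0.37 ± 0.12 (adjusted p = 0.0426, edgeR).

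These calls were less firm than that of RFC2. RRM1 lost its call without si_NC replicate 1 (adjusted p = 0.0541, edgeR) and OE_NC replicate 2 (0.0698). MCM2 lost it in 6 and POLE in 9 of the 12 fits that each left out 1 library. The number of genes called was 6 without OE_NC replicate 1 or si replicate 3, 8 without si_NC replicate 2, 2 on leaving out OE_NC replicate 3, either of the first 2 si libraries or si_NC replicate 3, and 1 without OE_NC replicate 2 or si_NC replicate 1. Calls over all genes ran from 1882 without OE_NC replicate 2 to 3849 without si replicate 3. POLA1 and RPA1 followed just outside the threshold, with log2 changes of -0.28 ± 0.10 (adjusted p = 0.0706) and -0.26 ± 0.10 (adjusted p = 0.0707) by edgeR. POLA1 stood at 119.7, 108 and 104 CPM in OE_NC, against 149, 116 and 137 CPM in si_NC. RPA1 stood at 243, 199.9 and 200.4 CPM in OE_NC, against 254, 237 and 278 CPM in si_NC. In both genes OE_NC replicate 1 reached into the si_NC range.

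Beyond the 43 genes, 63 further genes of origin firing, the fork, nucleotide supply, chromatin and G1/S control were counted, all of which were tested. In OE against OE_NC, 3 of 63 (4.76 percent) were called by edgeR, beside 4.47 percent of all genes. RRM2B, the ribonucleotide reductase subunit that p53 induces, was higher, with 6.65, 7.46 and 6.31 CPM in OE, against 3.93, 4.62 and 4.40 CPM in OE_NC (log2 change 0.66 ± 0.12, adjusted p = 0.0161). The dUTPase gene DUT was lower (log2 change -0.55 ± 0.14, adjusted p = 0.0411), as was CHTF8, a subunit of an alternative clamp loader (-0.52 ± 0.14, adjusted p = 0.0456). The groups did not overlap in any of these 3 genes. RRM2B lost its call without OE replicate 2 (adjusted p = 0.120), OE replicate 3 (0.0545), OE_NC replicate 1 (0.0826) or OE_NC replicate 2 (0.0590), DUT in 7 and CHTF8 in 9 of the 12 fits that each left out 1 library, all by edgeR. With a gene-length trend removed, the log2 change of DUT was -0.29 (adjusted p = 0.119, edgeR).

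In si against si_NC, 3 of the 63 were called by edgeR, all lower, beside 1.62 percent of all genes lower and 2.54 percent in either direction. SSRP1, a subunit of the histone chaperone FACT, stood at 1003, 979 and 927 CPM in si, against 1595, 1171 and 1488 CPM in si_NC (log2 change -0.55 ± 0.10, adjusted p = 0.0125). CCNE1, the gene of cyclin E1, which drives entry into S phase, stood at 3.18, 3.17 and 3.44 CPM in si, against 8.05, 5.98 and 5.48 CPM in si_NC (-0.99 ± 0.21, adjusted p = 0.0248). TOP1, the topoisomerase that relieves twist ahead of the fork, was lower by a log2 change of -0.32 ± 0.07 (adjusted p = 0.0254). The groups did not overlap in these genes. SSRP1 lost its call without si replicate 2 (adjusted p = 0.0554) or si_NC replicate 1 (0.0655), CCNE1 without si replicate 1 (0.0978) or 2 (0.0928) or si_NC replicate 1 (0.137), and TOP1 without those 3 libraries or si_NC replicate 3, where its adjusted p was 0.0662 to 0.122, by edgeR. In a fit of the si and si_NC libraries alone, SSRP1 (adjusted p = 0.105), CCNE1 (0.0847) and TOP1 (0.140) all lost the call by edgeR. TOP1 also lost it with library totals (adjusted p = 0.0625, edgeR) and with limma on log2(RPKM + 1) (0.0669) and log2(RPKM + 0.1) (0.0696). CCNE1 lost it with limma on log2(RPKM + 0.1) (adjusted p = 0.0620).

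Of the 63 genes, 11 (17.5 percent) were called between the control groups, 2 higher and 9 lower in OE_NC than in si_NC, beside 19.7 percent of all genes. RNASEH2A, the catalytic subunit of the nuclease that removes ribonucleotides from DNA, was higher (log2 change 0.67 ± 0.11, adjusted p = 0.00134, edgeR). TIMELESS, a fork protection factor, was lower (-0.37 ± 0.07, adjusted p = 0.00186), as were TOP1 (-0.33 ± 0.07, adjusted p = 0.00419), RBL1, the retinoblastoma relative p107 (-0.62 ± 0.13, adjusted p = 0.00554), SLBP, which binds histone mRNA (-0.41 ± 0.10, adjusted p = 0.00917), and CCNE1 (-0.88 ± 0.21, adjusted p = 0.00936), all by edgeR. Of the 14 mitosis genes, CDC20, an activator of the anaphase-promoting complex, was called higher between the controls (0.65 ± 0.14, adjusted p = 0.00517, edgeR), and it was called lower in OE against OE_NC (-0.54 ± 0.14, adjusted p = 0.0422, edgeR), a call lost in 7 of the 12 fits that each left out 1 library. CCNE1 lost its call between the controls without OE_NC replicate 2 (adjusted p = 0.0503, edgeR). In si against si_NC, CDC20 stood at 24.04, 24.7 and 20.5 CPM in si, against 18.5, 12.6 and 19.0 CPM in si_NC, which did not pass (0.46 ± 0.14, adjusted p = 0.0877, edgeR).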

How the data were processed

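The deposited table holds raw counts per gene for 12 libraries of 4 groups, and a second table holds RPKM values deposited by the authors from those counts. Per the labels' protocols, RNA was extracted with TRIzol and libraries were stranded and poly(A)-selected. Per the submitters' processing notes, fastp 0.23.0 and featureCounts of Subread 1.5.1 were used, whereas the aligner, the build and the strand setting were not given in the sources used here.

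Counts were fitted in edgeR 4.0.16 (R 4.3.3) with TMM scaling, filterByExpr (minimum count 10, minimum total 15), 1 mean per group over all 12 libraries (8 residual degrees of freedom), quasi-likelihood F tests and Benjamini-Hochberg adjustment over 16300 genes with a threshold of 0.05. The 2 entries without a gene name, 0.0868 to 0.116 percent of counts, were left out. The 43 genes, the comparison lists and the rule for named genes were chosen with earlier results of these data known. Genes described in full were those called, those with the lowest p up to 6 per comparison, and the highest per length in each complex. DESeq2 1.42.0, limma 3.58.1 on log2(RPKM + 1) and log2(RPKM + 0.1), other scalings and filters, a replicate block, halved counts, a gene-length trend and leaving out each library were alternatives. Between 66.2 and 69.3 percent of the nonzero counts in a library were even. Replicates correlated at 0.984 to 0.993 (log2 CPM). The test was run on simulated counts drawn for each gene on its own. These lack the shifts shared by genes within a library that the data show, so that check does not cover them.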

Additional observations from a re-analysis of the deposited data

Results flagged for a closer look

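The change in OE and the change in si were compared directly, and edgeR's quasi-likelihood test called 1 of the 43 replication genes, 4 of the 63 other replication and G1/S genes and 2 of the 14 mitosis genes at an adjusted p under 0.05, beside 8.41 percent of all genes. RPA1, the large subunit of the single-strand binding protein, had a difference of 0.58 on the log2 scale (adjusted p = 0.0178, edgeR), with log2 changes of 0.05 in OE and -0.53 in si.

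Of the other replication and G1/S genes, TOP1 differed by 0.48 (adjusted p = 0.0089), with log2 changes of 0.16 in OE and -0.32 in si, SSRP1 by 0.54 (adjusted p = 0.0270), with -0.01 in OE and -0.55 in si, and TIMELESS by 0.39 (adjusted p = 0.0190), with 0.17 in OE and -0.22 in si, all by edgeR. RNASEH2A differed the other way, by -0.73 (adjusted p = 0.0133, edgeR), with -0.40 in OE and 0.33 in si. SSRP1 lost this call in 9 and TIMELESS in 4 of the 12 fits that each left out 1 library. Both also lost it with library totals (adjusted p = 0.0613 for SSRP1 and 0.0820 for TIMELESS, edgeR) and with limma at either pseudocount.

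Of the mitosis genes, CDC20 differed by -0.999 (adjusted p = 0.00819, edgeR), with log2 changes of -0.54 in OE and 0.46 in si. BIRC5, the gene of survivin, differed by -0.72 (adjusted p = 0.0171, edgeR), with -0.42 in OE and 0.30 in si, and lost this call in 3 of the same 12 fits. RPA1 lost it in 2 of the 12 and with limma at either pseudocount, and the calls of TOP1, RNASEH2A and CDC20 held in all 12. The 2 control groups enter this comparison with opposite signs, so a gap between them enters it too. TOP1 (log2 change -0.33), TIMELESS (-0.37), RNASEH2A (0.67) and CDC20 (0.65) were also called in OE_NC against si_NC by edgeR, and RPA1 (-0.26) was not. The part of the controls in these differences was not tested.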

How the results depend on the processing

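The number of replication genes called and their medians moved with the setting, and the cause was not tested. Calls over all genes moved too. Over the alternatives other than leaving out 1 library, they ran from 8 to 1208 in si and from 523 to 2325 in OE. They ran from 1209 to 2305 for the OE change minus the si change and from 2413 to 3928 between the controls. In OE against OE_NC, where 0 genes were called, library totals gave 4, DESeq2's Wald test 4, no filter 8, a floor of 5 CPM 3, a fit of these groups alone 5, limma 2 with either pseudocount, and halved counts 2. In si against si_NC, with 1 call, no filter gave 3 and a fit of these groups alone 0. For the OE change minus the si change, with 1 call, library totals gave 3, DESeq2 2, no filter 2, 5 CPM 2, the length trend 2 and limma 0 with either pseudocount. No value came from a fit of only the groups compared, since it holds no second pair. In OE_NC against si_NC, with 4 calls, library totals gave 1, no filter 10, 5 CPM 2, limma 2 with either pseudocount, the length trend 6 (MCM2, PCNA, RFC2, FEN1, RPA1 and RRM1) and a fit of these groups alone 3.

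Leaving out 1 library gave 0 to 2 calls in si, 0 to 4 in OE, 0 to 3 for the OE change minus the si change, and 1 to 8 between the controls. Leaving out si replicate 3 and si_NC replicate 2 together, an alternative added after the data were seen, gave 1, 10, 3 and 11 calls in the same order. The median of the 43 genes in OE stayed between -0.29 and -0.12 over the 24 alternatives, in si it ran from -0.19 to 0.01, for the OE change minus the si change from -0.29 to -0.02 (23 alternatives) and between the controls from -0.16 to 0.07.

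Some small changes turned sign. In si, with library totals POLE was at 0.020 and RRM1 at 0.042. With limma on log2(RPKM + 1), MCM7 was at 0.0033, MCM10 at 0.0069, POLE at 0.023 and RRM1 at 0.041, and with log2(RPKM + 0.1), MCM7 at 0.0036, MCM10 at 0.0074, POLE at 0.034 and RRM1 at 0.041. Leaving out libraries, in si ORC6 ran from -0.0031 (without si replicate 2) to 0.24, MCM7 from -0.24 to 0.025, MCM10 from -0.24 to 0.043, POLE from -0.22 to 0.082 and RRM1 from -0.15 to 0.00091, the highest of these 4 each without si_NC replicate 1, and MCM10 was at 0.0093 without si replicate 3. In OE, RPA1 was at -0.00049 with library totals, and, leaving out OE_NC libraries, -0.0036 (replicate 2), -0.012 (replicate 3) and 0.14 (replicate 1), and POLA1 at -0.0072 with the length trend, and, leaving out the same libraries, -0.00085 (replicate 3) and 0.11 (replicate 1).

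A replicate block gave 1 call in si, 3 in OE (CDC6, MCM2 and LIG1), 1 for the OE change minus the si change and 4 between the controls. Same-numbered deviations from the group means correlated at 0.09, -0.26 and -0.19 in si and si_NC and at 0.04, -0.01 and -0.01 in OE and OE_NC, and not every library correlated best with its own number. With 3 libraries a group, whose deviations are tied to each other, these correlations cannot exclude a pairing by number.

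Over all genes, calls also moved: 414 in si (56 to 1083 without 1 library), 728 in OE (19 to 1414), 1371 for the OE change minus the si change (588 to 2152) and 3215 between the controls (1882 to 3849). With library totals 298 of 404 calls in si were higher, against 150 of 414. Low counts limit POLE2, GINS3 and CDT1 most.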
